A study of Rattus norvegicus with 14 samples.

Results

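The genes described here handle vitamin A in plantaris, a fast-twitch muscle of the rat calf. They are the blood carrier Rbp4, its membrane receptor Stra6, the retinaldehyde dehydrogenases Aldh1a1 and Aldh1a2, the retinoic acid receptors Rara, Rarb and Rarg, and Cyp26b1, the cytochrome that clears retinoic acid. These 8 genes were taken by name from the 19769 gene symbols on the array, and all 8 were among the 17434 genes that could be tested. Each gene is represented by its brightest probe.

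RNA came from plantaris muscles of Wistar rats on 3 diets, and each muscle was labelled with Cy3 and hybridised to 1 array. Control chow, fed to 4 rats, held vitamin D at 1000 IU per kg. A further 6 rats were fed chow depleted of this vitamin (depletion), and the remaining 4 had it taken away and later restored (repletion). The sources used here do not give age, sex, length of feeding or how much vitamin D the depleted and restored diets held. By its title depletion replicate 1 belongs to depletion, where it was kept, but its diet label is that of repletion.

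Retinol travels in blood bound to the protein of Rbp4, together with transthyretin, and enters cells that carry Stra6. Inside the cell retinol is oxidised to retinaldehyde, which Aldh1a1 and Aldh1a2 turn into retinoic acid. Retinoic acid binds the receptors of Rara, Rarb and Rarg, which pair with retinoid X receptors on DNA. The vitamin D receptor pairs with the same partners. In cultured myoblasts retinoic acid is known to promote differentiation, and Cyp26 enzymes limit how far it acts.

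A level below is the log2 of a probe's signal over the array's own 75th percentile of signal, so a difference of 1 is 2-fold. Levels of a diet are mean ± SD. Differences between diets are on the log2 scale, ± SE, and come from 1 limma fit of all 14 arrays with slide as a block. Slide 1 held 4 arrays, slides 2 and 3 held 3 each, and slides 4 and 5 held 2 each. Spots well above background made up 82.8% to 88.1% of each array, whose 75th percentiles were 1785 to 2389 scanner units. The probes of all 8 genes were well above background on 14 of 14 arrays and none was saturated. The titles call the muscles biological replicates, and their number limits the precision.

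Muscle fibre markers were bright, as the label requires: 12 of 12 were tested, with control means from 6.24 to 8.22. Depletion replicates 1 and 2 stood apart in some liver transcripts but not in all that were listed. On these 2 arrays albumin, Alb, was at 0.93 and 1.06, against -5.67 or lower on every other array. Ttr, which encodes transthyretin, was at -1.01 and 0.27, against -4.62 or lower elsewhere. Apoa1 was at -4.69 and -4.36, against -5.26 or lower elsewhere. Serpina1 did not stand apart, at -3.11 and -3.04, with -2.43 on control replicate 4. The score of the 4 hepatocyte markers, their mean deviation from each gene's own mean, reached 3.71 under depletion, and the highest score was -0.37 under control and 0.03 under repletion. Repletion replicate 2 stood apart in Schwann cell markers, with a score of 2.46 against -0.83 to 0.81 on all other arrays. In bulk muscle, fewer cells of a type and less RNA per cell cannot be told apart.

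None of the 8 genes differed between diets at limma's adjusted p under 0.05. The same test called 0 of 26391 probes (0%) in depletion against control, where the unadjusted p was under 0.05 for 0 of the 8 genes and for 4.82% of all probes. In repletion against depletion it again called 0 of 26391 probes (0%), with an unadjusted p under 0.05 for 1 of the 8 genes, Cyp26b1, and for 3.44% of all probes. Repletion against control gave 0 called probes (0%), with an unadjusted p under 0.05 for 0 of the 8 genes and 1.98% of all probes. The 3 comparisons share arrays. The median difference of the 8 genes was -0.01, 0.11 and -0.00 in this order, and that of all probes was -0.02, 0.04 and 0.01. For none of the 8 genes did the arrays of 2 diets separate without overlap, which held for 0.828%, 0.291% and 1.1% of all probes.

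**Figure D1:**
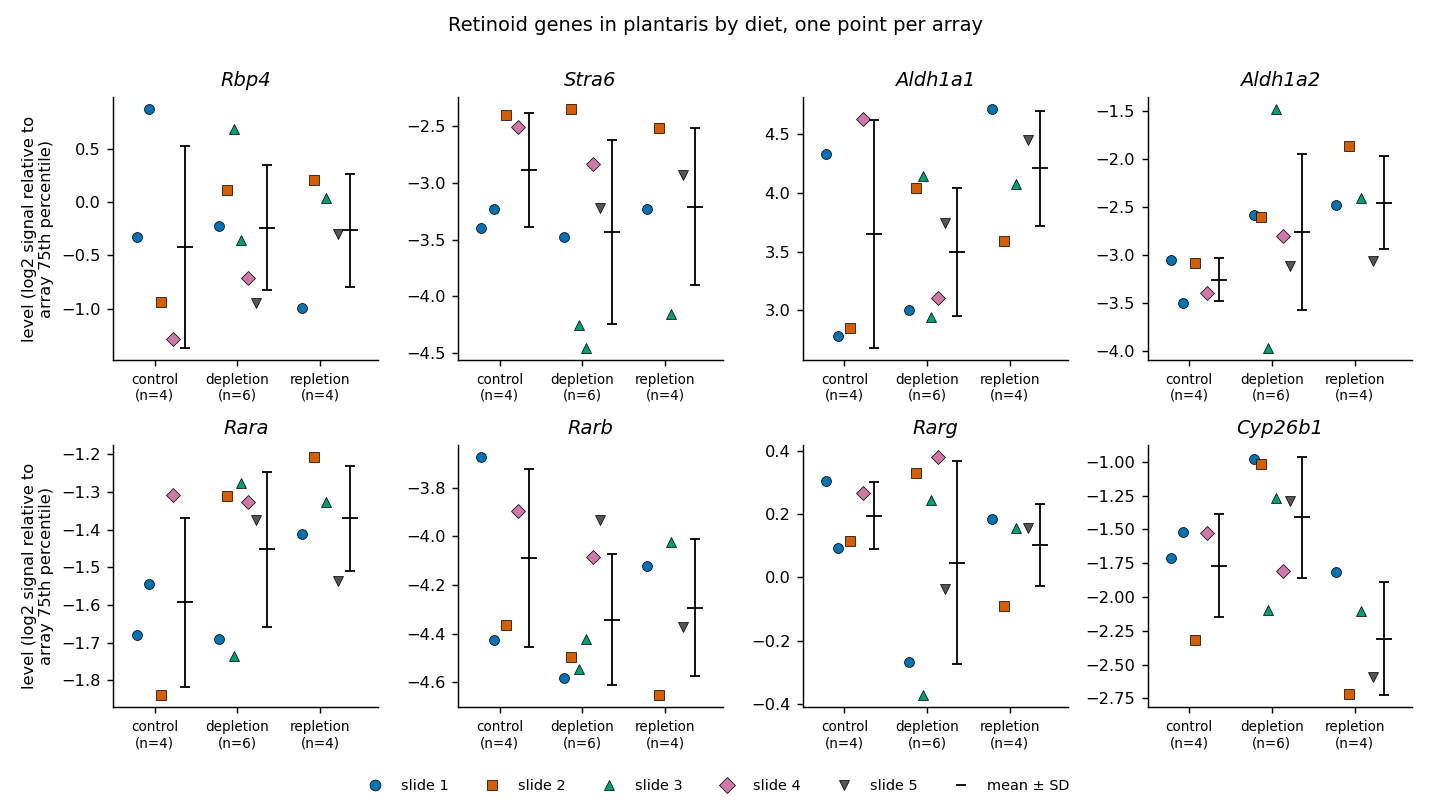
Level of each gene on each array (log2 signal relative to the 75th percentile of the array) for control (n = 4), depletion (n = 6) and repletion (n = 4), with symbols for the slide and bars for mean ± SD. The diets overlap in every panel, and the repletion arrays of Cyp26b1, at -2.72 to -1.82, lie toward the bottom of its panel.

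**Figure D2:**
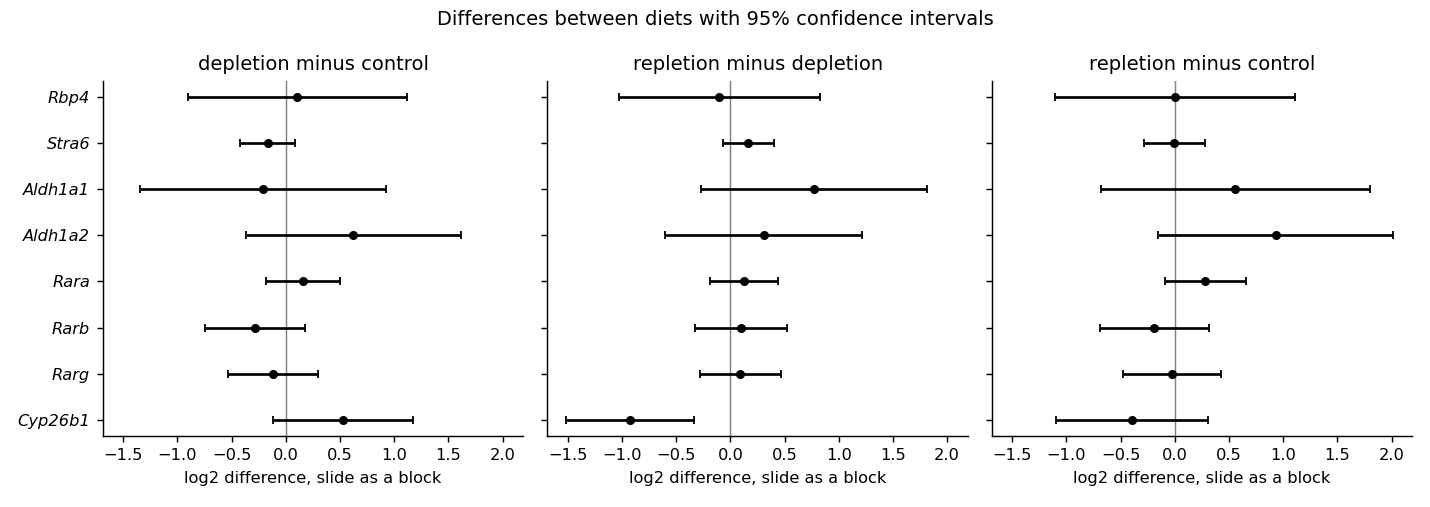
Log2 difference between diets for each gene with its 95% confidence interval, fitted with slide blocked. The interval of Cyp26b1 in repletion minus depletion, -1.51 to -0.33, is the only 1 of the 24 intervals that does not cross 0.

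Cyp26b1, the enzyme that removes retinoic acid, showed the lowest levels under repletion. It lay at -1.71, -1.52, -2.32 and -1.53 on control replicates 1 to 4. Under depletion it ran from -2.09 to -0.98 with a median of -1.28. On repletion replicates 1 to 4 it was at -1.82, -2.72, -2.10 and -2.59. Every repletion array was thus lower than 3 of the 4 control arrays, while depletion replicate 3 lay among the repletion arrays. The group levels were -1.77 ± 0.38 (n = 4), -1.41 ± 0.45 (n = 6) and -2.31 ± 0.42 (n = 4).

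Repletion minus depletion came to -0.92 ± 0.26 for Cyp26b1, a level 1.90-fold lower, with an unadjusted p of 0.0061 and a limma adjusted p of 0.935. The difference had the same sign on all 4 slides that held both diets, at -0.84, -1.70, -0.42 and -1.30 on slides 1, 2, 3 and 5. Among the 8 genes, 2 kept 1 sign on all 4 slides (Cyp26b1 and Aldh1a2), which 9.52% of all probes did. With slide effects removed, the repletion arrays of Cyp26b1 ran from -2.54 to -1.94 and the depletion arrays from -1.93 to -0.84. They no longer overlapped, by a gap at the second decimal, as was true of 2.65% of all probes and of none of the other 7 genes.

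For Cyp26b1 depletion minus control was 0.53 ± 0.29, and its 95% interval, -0.12 to 1.17, took in both signs. On slides 1, 2 and 4 it was 0.64, 1.30 and -0.28, so the sign turned on slide 4. Repletion minus control was -0.40 ± 0.31, and it was -0.20 without control replicate 4 or without depletion replicate 5, the 2 arrays of slide 4, and -0.24 without repletion replicate 2. Diet accounted for 51.1% of the variance of Cyp26b1 with slide in the model, where the median of all probes was 6.69%. The F test over diets gave an unadjusted p of 0.0176 and a limma adjusted p of 0.992.

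The 2 arrays with the liver transcripts, depletion replicates 1 and 2, also held the highest Cyp26b1 levels, -0.98 and -1.02. Without both, depletion minus control was 0.14 ± 0.33 and repletion minus depletion was -0.62 ± 0.28 (unadjusted p 0.0619). Leaving out single arrays in turn moved repletion minus depletion between -1.13 and -0.72, the latter without depletion replicate 2. Repletion replicate 2, the array high in Schwann cell markers, had the lowest Cyp26b1 level, and without it repletion minus depletion was -0.80. Depletion replicate 1 is also the array whose 2 labels disagree on the diet. With it counted as repletion, repletion minus depletion was -0.82, depletion minus control 0.68 and repletion minus control -0.14. The part of these arrays' other transcripts in the result was not tested beyond these values.

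**Figure D3:**
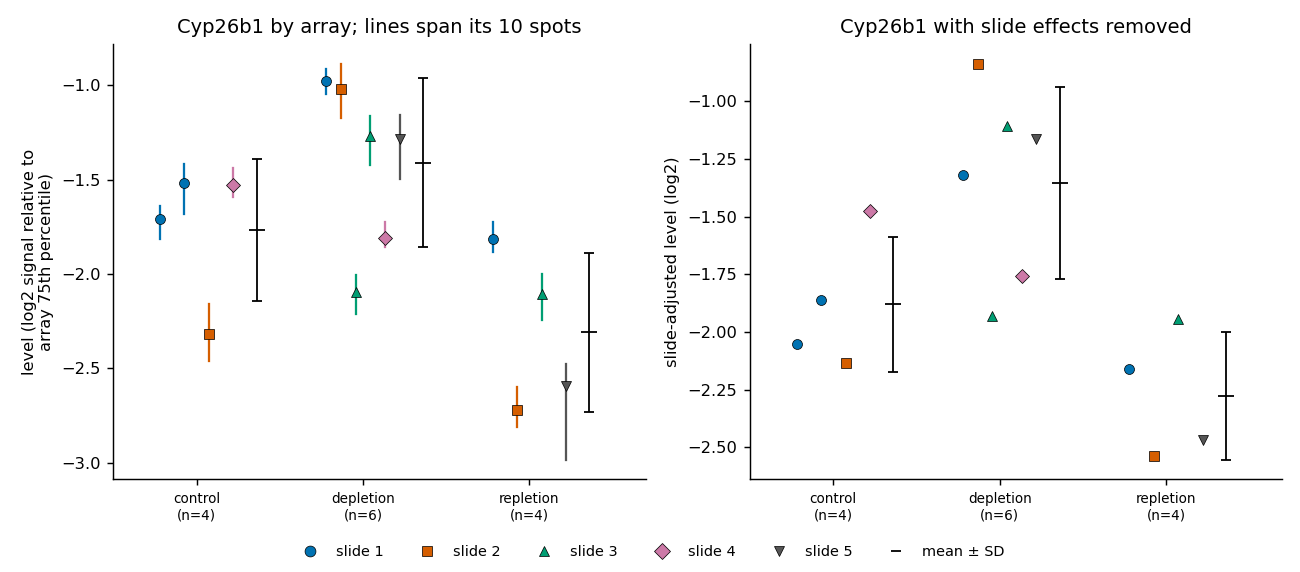
Left, Cyp26b1 level (log2 signal relative to the 75th percentile of the array) on each array by diet, with lines spanning its 10 spots and bars for mean ± SD; right, the same with slide effects removed. Replicate spots differ far less than arrays do, and after slide removal all 4 repletion arrays are at -1.94 or lower and all 6 depletion arrays at -1.93 or higher.

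Cyp26b1 was the best measured of the genes, since its probe was spotted 10 times on each array and the others once. The SD among its spots had a median of 0.071 on the log2 scale and ran from 0.0386 to 0.144. That is small beside the residual SD of 0.44 between arrays in the fit. Its probe maps to chromosome 4, 118735314 to 118735373 (rn4, from the array annotation), on the minus strand. In repletion minus depletion the other clearance enzymes gave 0.25 ± 0.27 (Cyp26a1) and 0.00 ± 0.17 (Cyp26c1).

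Among the receptors, Rarb is itself a classic target of retinoic acid, through a direct repeat near its start. In the RefSeq promoter windows (GRCr8, 250 bases before to 50 after the start) a search on both strands looked for direct repeats of the receptor unit AGGTCA and its variants, the unit AGTTCA, the unit GGGTCA and the unit GGTTCA. All 8 genes had a window, 9 in all, and 1 window held such a repeat with 1, 2, 3 or 5 bases between its units. It was that of Rarb, with 5 bases between, the spacing bound by retinoic acid receptors. Of 33469 rat promoter windows 0.382% held this spacing, and 0.099% held the spacing of 3 bases bound by the vitamin D receptor. The stretch is shown because it is the only such match among these genes; capitals mark the 2 units and the bases between them, at bases 25 to 41 after the start (chr15:11336409-11336438, GRCr8, plus strand). A match describes letters and not binding.
Rarb start region: cgggaagGGTTCACCGAAAGTTCActcgca

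The Rarb transcript was measured by 1 probe inside the transcript at base 546, on an unplaced part of chromosome 15 in rn4 (240462 to 240521). Rarg had 2 probes, and the dimmer of them is shown beside that of Rarb because its unadjusted p was under 0.05 in 2 comparisons. It starts at base 856 of the transcript (chromosome 7, 140997104 to 140997163, rn4, minus strand), and the brighter at base 2888 (140991447 to 140991506).
Rarb probe: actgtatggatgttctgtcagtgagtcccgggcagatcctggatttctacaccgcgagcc
Rarg second probe: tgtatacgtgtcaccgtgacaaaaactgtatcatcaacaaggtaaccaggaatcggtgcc

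Rarb levels were -3.67, -4.43, -4.36 and -3.90 on control replicates 1 to 4 and -4.12, -4.65, -4.02 and -4.37 on repletion replicates 1 to 4. Under depletion they ran from -4.58 to -3.93 with a median of -4.46. The 3 diets covered nearly the same range, and the highest value was control replicate 1. Depletion minus control was -0.29 ± 0.20, repletion minus depletion 0.10 ± 0.19 and repletion minus control -0.19 ± 0.22, none beyond the replicate error. Without control replicate 1, the highest array, depletion minus control was -0.14 and repletion minus control -0.029. On each of the 3 slides that held both diets depletion minus control was negative, at -0.53, -0.13 and -0.19. Such a shared sign was found in 2 of the 8 genes (Rarb and Aldh1a2) and in 27.3% of all probes, so the share is near the background. With slide effects removed, depletion and control separated without overlap in 0 of the 8 genes and in 5.41% of all probes.

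Rara, the receptor found in most tissues, lay at -1.68, -1.54, -1.84 and -1.31 on control replicates 1 to 4. Repletion replicates 1 to 4 gave -1.41, -1.21, -1.33 and -1.54. Depletion ran from -1.74 to -1.28 with a median of -1.35. The group levels were -1.59 ± 0.23 in control (n = 4), -1.45 ± 0.21 in depletion (n = 6) and -1.37 ± 0.14 in repletion (n = 4), with ranges that overlapped. Repletion minus control was 0.28 ± 0.17 (95% interval -0.09 to 0.65), and depletion minus control was 0.15 ± 0.15. Without control replicate 3, the lowest array, these were 0.11 and -0.0016. Its probe maps to chromosome 10, 87753153 to 87753212 (rn4).

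The brighter probe of Rarg was nearly level across diets, at 0.19 ± 0.11 in control (n = 4), 0.05 ± 0.32 in depletion (n = 6) and 0.10 ± 0.13 in repletion (n = 4). Its depletion arrays spread most, from -0.37 to 0.38. It gave -0.12 ± 0.18 in depletion minus control and repletion minus depletion 0.09 ± 0.17. The second probe of Rarg gave -4.07, -3.69, -4.36 and -4.10 on control replicates 1 to 4 and -3.83, -4.24, -4.20 and -4.18 on repletion replicates 1 to 4. On the depletion arrays it ran from -4.82 to -4.09 with a median of -4.53, so 5 of the 6 lay lower than every control and repletion array.

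For that second probe depletion minus control was -0.40 ± 0.18 (unadjusted p 0.0497, limma adjusted p 0.836). Repletion minus depletion was 0.40 ± 0.16 (unadjusted p 0.0363, limma adjusted p 0.935), and repletion minus control was -0.00 ± 0.20. The within-slide differences of depletion from control were -0.72, -0.20 and -0.36, and those of repletion from depletion were 0.78, 0.33, 0.26 and 0.31. A sign shared by every slide that held both diets was found for 27.3% and 9.52% of all probes, in this order. Both comparisons rest on the same depletion arrays, of which replicates 1 and 2 gave -4.61 and -4.57. No value without these replicates is given for this probe. The brighter probe changed sign between slides in both comparisons and the dimmer did not, though their fitted differences had the same signs. The difference between the probes was not tested. Neither passed the adjusted test.

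The enzymes that make retinoic acid varied more between muscles than most genes did. The residual SD of Aldh1a1 in the fit was 0.80, at the 95.4th percentile of all probes, and that of Aldh1a2 was 0.69, at the 92.8th percentile. Aldh1a1 signals ran from 13512 to 50583 in scanner units. On control replicates 1 to 4 its level was 4.33, 2.78, 2.85 and 4.63. Repletion replicates 1 to 4 gave 4.71, 3.59, 4.08 and 4.45, and depletion ran from 2.94 to 4.14 with a median of 3.42. The 4 control arrays were 2 high and 2 low ones, with all depletion arrays between them.

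Repletion minus depletion for Aldh1a1 was 0.77 ± 0.46 (95% interval -0.27 to 1.81, unadjusted p 0.129). It was positive on slides 1, 3 and 5, at 1.71, 0.53 and 0.71, and negative on slide 2, at -0.45. Without depletion replicates 1 and 2 it was 1.05 ± 0.53. In depletion minus control Aldh1a1 gave -0.21 ± 0.51, and on slides 1, 2 and 4 it was -0.55, 1.19 and -1.53. Its probe maps to chromosome 1, 223773152 to 223773211 (rn4).

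Aldh1a2, the main retinoic acid maker of the embryo, was lowest in control on average. Its level was -3.05, -3.50, -3.09 and -3.40 on control replicates 1 to 4, and -2.48, -1.86, -2.40 and -3.06 on repletion replicates 1 to 4. Repletion replicate 4 lay just inside the control range, and the other 3 repletion arrays lay higher than every control array. Depletion spread from -3.97 on replicate 3 to -1.48 on replicate 4, 2 arrays of the same slide, with a median of -2.71. Repletion minus control was 0.93 ± 0.48, or 1.91-fold, with an unadjusted p of 0.0839 and a limma adjusted p of 1.00. On slides 1 and 2 it was 0.79 and 1.22.

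After removal of slide effects the Aldh1a2 levels of control (-3.56 to -3.10) and repletion (-2.54 to -2.17) did not overlap, which held for 5.03% of all probes. Depletion minus control was 0.62 ± 0.44 (95% interval -0.37 to 1.62), at 0.70, 0.48 and 0.59 on slides 1, 2 and 4. Repletion minus depletion was 0.31 ± 0.40, and it was 0.01 without depletion replicate 3 and 0.60 without depletion replicate 4. These 2 arrays moved it in opposite directions, and it was positive on all 4 slides that held both diets, at 0.10, 0.74, 0.32 and 0.055 on slides 1, 2, 3 and 5. In repletion against control 6 of the 8 genes kept 1 sign on both slides that held the 2 diets, as did 48.9% of all probes. Its probe maps to chromosome 8, 75771061 to 75771120 (rn4).

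Stra6, the receptor that takes retinol from its carrier, differed between slides and not detectably between diets. Its mean level was -3.34, -2.43, -4.29, -2.67 and -3.07 on slides 1 to 5. On slide 3 its 3 arrays lay at -4.45 to -4.15, lower than every array of the other slides. Slide accounted for 86.5% of the variance of Stra6 with diet in the model, where the median of all probes was 45.9%. Limma's F test over slides gave an adjusted p of 6.06e-05 for Stra6, the only 1 of the 8 genes it called, against 28.1% of all probes.

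By diet Stra6 was at -3.39, -3.23, -2.40 and -2.51 on control replicates 1 to 4 and at -3.23, -2.52, -4.15 and -2.93 on repletion replicates 1 to 4. Depletion ran from -4.45 to -2.35 with a median of -3.35. With slide in the fit its residual SD was 0.13, at the 13.4th percentile of all probes, and the differences were small with narrow intervals. Depletion minus control was -0.17 ± 0.11 (95% interval -0.42 to 0.09), and repletion minus depletion was 0.16 ± 0.10 (-0.07 to 0.40). Repletion minus control was -0.00 ± 0.12 (-0.28 to 0.28). Before slide was taken into account the group levels were -2.89 ± 0.50 in control (n = 4), -3.43 ± 0.81 in depletion (n = 6) and -3.21 ± 0.69 in repletion (n = 4). Its probe maps to chromosome 8, 61939430 to 61939489 (rn4).

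**Figure D4:**
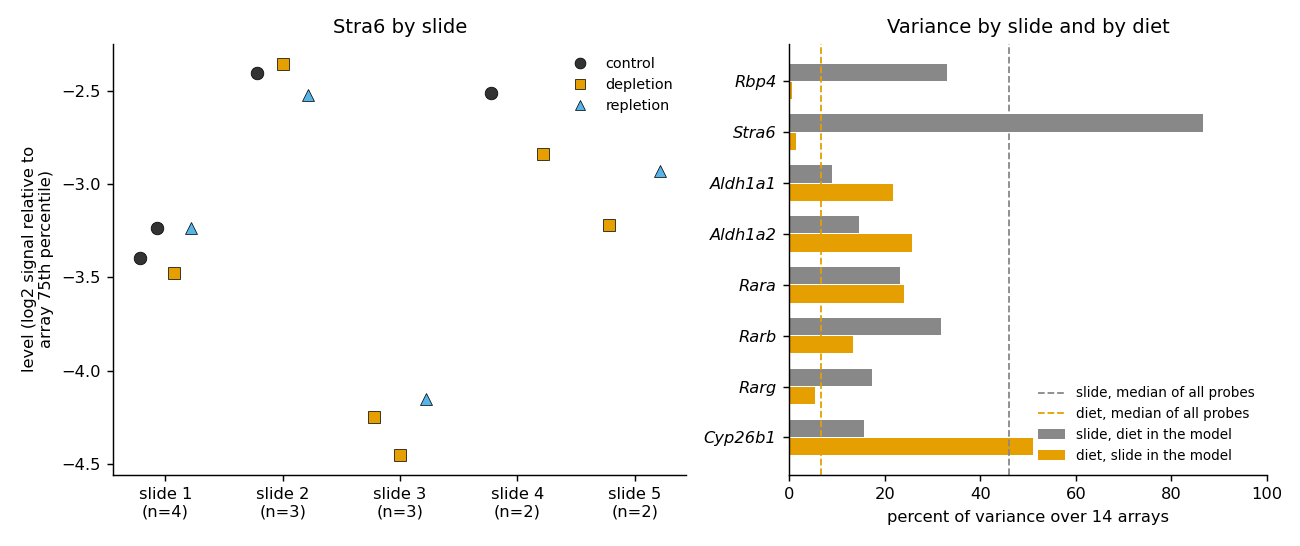
Left, Stra6 level (log2 signal relative to the 75th percentile of the array) by slide, with symbols for diet; right, percent of variance over 14 arrays explained by slide and by diet for each gene, with dashed lines for the medians of all probes. The largest slide share was that of Stra6, at 86.5%, and the largest diet share that of Cyp26b1, at 51.1%. Limma's F test over diets did not call Cyp26b1 (adjusted p 0.992).

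Rbp4, which liver and fat cells are known to make, varied widely within each diet. On control replicates 1 to 4 its level was -0.33, 0.87, -0.94 and -1.29, which holds both the highest and the lowest of all 14 arrays. Repletion replicates 1 to 4 were at -0.99, 0.20, 0.04 and -0.30. Depletion ran from -0.94 to 0.69 with a median of -0.29. Depletion minus control was 0.10 ± 0.45, repletion minus depletion -0.10 ± 0.41 and repletion minus control 0.00 ± 0.49. The 95% interval of the last reached 1.11, which takes in a 2-fold difference. Its probe maps to chromosome 1, 242443795 to 242443854 (rn4).

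The 2 genes whose pattern was most like that of Rbp4 were fat cell genes, and the third was Paxbp1, which is not a fat cell marker, at r = 0.90. Across the 14 arrays, with slide means subtracted, Pearson's r was 0.97 with Cfd, the adipocyte protease adipsin, and 0.94 with Adipoq, the fat hormone adiponectin. Spearman's rho was 0.95 for both, and r was 0.95 and 0.89 over the 12 arrays left without control replicate 2 and repletion replicate 1. These 3 genes were picked as the closest of all, so no test is given. Control replicate 2 was highest in both Rbp4 (0.87) and Adipoq (1.70), and control replicate 4 lowest in both (-1.29 and -1.34).

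Not all fat cell genes shared this pattern. Among the 9 adipocyte markers, all tested, r with Rbp4 was 0.84 for Pck1, 0.82 for Cidec and 0.76 for Retn. It was 0.31 for Fabp4, 0.29 for Plin1, 0.24 for Lep and -0.27 for Lipe. Plin1 was well above background on 10 of 14 arrays and Lep on 11, which limits what their r can show. Fabp4 and Lipe were so on all 14. The adipocyte score spanned -0.55 to 0.78 in control, -0.25 to 0.67 in depletion and -0.46 to 0.07 in repletion, and limma called 0 of the 9 in any comparison. For the liver genes r with Rbp4 was 0.29 for Alb, 0.17 for Ttr, -0.22 for Apoa1 and -0.15 for Serpina1. Alb was well above background on 7 of 14 arrays, and Alb and Ttr varied mainly through depletion replicates 1 and 2. Their r therefore says little. Rbp4 on the 2 arrays rich in Alb was -0.22 and 0.11, in the middle of its range. The part of fat cell content in the Rbp4 values was not tested.

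**Figure D5:**
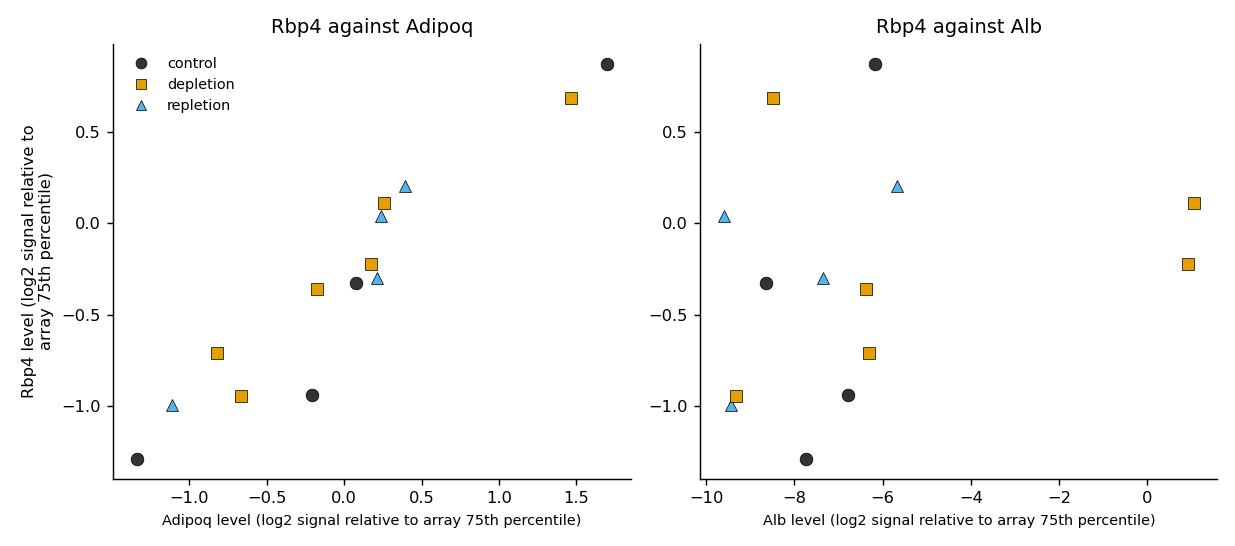
Rbp4 level against Adipoq level (left) and Alb level (right), each in log2 signal relative to the 75th percentile of the array, 1 point per array with symbols for diet and slide effects kept. Rbp4 runs from -1.29 to 0.87 along Adipoq, while the 2 depletion arrays with Alb near 1 hold middling Rbp4.

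The other genes had closest patterns outside the retinoid pathway. For Stra6 they included Smptb at r = 0.95 and Cfap68 at r = 0.94. For Cyp26b1 they were Lyplal1, Mk1 and Josd1, at r = 0.87 to 0.88. Rara was closest to Gli1, Lrrc4c and Klf16, Rarb to LOC367516, Mis12 and Ndc80, and Rarg to Dap, Dbn1 and Chst1. Aldh1a1 was closest to LOC100912258, Vom2r13 and Slc6a20a, and Aldh1a2 to Emp3, Tubb3 and Kcne4. All these r are over 14 arrays with slide means subtracted, and each gene was set against every other tested gene, so these values are a description only.

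Among themselves the 8 genes moved together little. Of their 28 pairs the highest r was 0.70, between Aldh1a2 and Rara, followed by 0.58 between Stra6 and Aldh1a1 and 0.54 between Rarb and Rarg. The lowest was -0.49, between Rbp4 and Rarb. Cyp26b1 had r between -0.30 and 0.20 with each of the other 7. These arrays share slides and 3 diets, and the values are descriptions.

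The wider retinoid pathway held no called gene. Of 67 further genes listed by role, 57 were tested, and limma called 0 in each comparison. Counting an unadjusted p under 0.05, depletion against control had 2 higher and 0 lower, with 1 and 0 in repletion against depletion, and 2 and 0 in repletion against control. All probes gave 2.17% higher and 2.64% lower in the first, 2.45% and 0.989% in the second, and 1.3% and 0.682% in the third. The median differences of the list were 0.01, 0.07 and 0.05, beside -0.02, 0.04 and 0.01 for all probes. Of the 57, 11 differed between slides by limma's F test, which called 28.1% of all probes.

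Among carriers and binding proteins 9 of 11 were tested and 0 were called. Rbp7, a retinol binding protein of fat and vessel cells, was at -1.74 ± 0.15 in control (n = 4), -1.33 ± 0.25 in depletion (n = 6) and -1.71 ± 0.31 in repletion (n = 4). Depletion minus control was 0.48 ± 0.18 (unadjusted p 0.0266), and 0.35 ± 0.26 without depletion replicates 1 and 2. Ttr gave 2.60 ± 0.96, and 0.15 ± 0.25 without those 2 arrays. The cellular retinoic acid binding protein Crabp2 gave 0.14 ± 0.26. Lrp2, which takes up retinol carriers in kidney, was not well above background on any control array. It was so on 3 of 6 depletion and 2 of 4 repletion arrays. No fold is given for it.

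The retinoid X receptors, partners of both the retinoic acid and the vitamin D receptor, were all tested and 0 of 3 were called. In depletion against control Rxra, Rxrb and Rxrg gave -0.13 ± 0.15, -0.10 ± 0.13 and -0.21 ± 0.29. In repletion against depletion they gave 0.20 ± 0.14, 0.07 ± 0.12 and 0.41 ± 0.26. Each of these differences was smaller than 2 SE.

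Among co-regulators 9 of 10 were tested and 0 were called, and the smallest unadjusted p belonged to Nrip1, a receptor-interacting protein that responds to retinoic acid. Its level was -0.41, -0.25, -0.07 and -0.81 on control replicates 1 to 4 and -0.01, 0.28, -0.24 and 0.25 on repletion replicates 1 to 4. Depletion ran from -1.13 to -0.05 with a median of -0.41. Repletion minus depletion was 0.48 ± 0.13 (unadjusted p 0.0040, limma adjusted p 0.935), and 0.43 ± 0.16 without depletion replicates 1 and 2. Repletion minus control was 0.46 ± 0.15 (unadjusted p 0.0132). Nrip1 also differed between slides (limma F test, adjusted p 0.024).

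Retinol oxidation genes had 15 of 20 tested and 0 called. Rdh10, the enzyme that makes retinaldehyde from retinol, gave 0.32 ± 0.13 in repletion against control (unadjusted p 0.0387), with levels of -5.80 ± 0.09 in control (n = 4) and -5.52 ± 0.11 in repletion (n = 4). Adh5, brightest of the group in control at 3.61 ± 0.14, differed by 0.10 ± 0.13 in depletion against control. Genes of retinol ester storage and release had 8 of 8 tested and 0 called, and Awat2, a wax alcohol acyltransferase, was well above background on 1 of 4 control, 4 of 6 depletion and 2 of 4 repletion arrays. It differed between slides (limma F test, adjusted p 0.000359), and no fold is given for it.

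Of 19 genes known to respond to retinoic acid 17 were tested and 0 were called, 8 higher and 9 lower in depletion against control with a median of -0.02, where 45.7% of all probes were higher. In repletion against depletion 13 were higher and 4 lower, with a median of 0.14 beside 0.04 for all probes, of which 58.6% were higher. Dhrs3, which turns retinaldehyde back to retinol, gave -0.20 ± 0.16 for depletion minus control and 0.20 ± 0.15 for repletion minus depletion. The cross-linking enzyme Tgm2 gave 0.20 ± 0.15 and 0.06 ± 0.14. The mitochondrial carrier Ucp3, at 5.25 ± 0.39 in control, gave -0.29 ± 0.25 and 0.20 ± 0.23, and the homeobox gene Cdx1 gave -0.21 ± 0.18 and 0.21 ± 0.16.

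Of 51 tested markers of other cells that a muscle sample can hold, limma called 0 in each comparison. Its unadjusted p was under 0.05 for 6 of the 51 in depletion against control, and for 4.82% of all probes. In repletion against depletion this held for 3 of the 51 and 3.44% of all probes. In repletion against control it held for 3 of the 51 and 1.98% of all probes. Macrophage markers were higher in depletion than in control in 7 of 7, with a median of 0.39. Of these, 0 had an unadjusted p under 0.05. They were also higher in repletion than in control in 6 of 7, with a median of 0.45. Of all probes 45.7% were higher in depletion than in control and 53.7% in repletion than in control. The macrophage score ran from -0.59 to 0.51 under depletion. Red blood cell markers were higher in depletion than in control in 3 of 3, with a median of 0.89. An unadjusted p under 0.05 was found for 2 of them. Their score was 1.63 on depletion replicate 1 and 0.44 or lower on every other array. Hepatocyte markers were higher in depletion than in control in 4 of 4, with 3 at an unadjusted p under 0.05. Their score was 3.26 and 3.71 on depletion replicates 1 and 2 and 0.09 or lower elsewhere. Fibroblast markers were lower in depletion than in control in 7 of 8, with a median of -0.32. They were higher in repletion than in depletion in 7 of 8, with a median of 0.39, as were 58.6% of all probes. Both counts share the depletion arrays. The fibroblast score was lowest on depletion replicate 1, at -0.98, and next lowest on depletion replicate 3, at -0.60. Schwann cell markers were higher in repletion than in control in 4 of 4, with a median of 1.29 and 2 at an unadjusted p under 0.05, and their score was highest on repletion replicate 2. The part of these cells in the values of the retinoid genes was not tested.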

How the data were processed

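Total RNA was measured in 14 plantaris muscles. Per the file headers, the deposited files give each spot's intensity as read by Agilent Feature Extraction 11.5.1.1 (build rn4), background-subtracted within each array. The deposited series table holds log2 values that the authors normalized between arrays, used as an alternative.

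Outlier-marked spots were left out and spots of a probe averaged. Log2 signal was taken relative to each array's 75th percentile. Probes well above background on at least 4 arrays, with at least 2 values per diet, were kept. Limma 3.58.1 in R 4.3.3 fitted 3 diets with slide as a fixed block (7 residual degrees of freedom) and Benjamini-Hochberg adjustment over 26391 probes. The fit was tested on simulated data. Gene symbols came from the files and RefSeq (GRCr8). A marker score is the mean deviation of a list's genes from their own means. Python 3.11.15, numpy 2.4.6, pandas 2.3.3 and matplotlib 3.10.9 were used.

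The 8 genes and all lists were chosen with earlier results of these data known. Named were the 8 genes, the 3 wider genes with the smallest unadjusted p per comparison, the 3 brightest in control and the 3 most like each of the 8. Other wider genes were named for their roles after their values were seen. Alternatives were median centring, quantile normalization, normexp (offset 50), the authors' values, other filters and blocks, subsets of groups and each array left out. A few named genes are not reported here.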

Additional observations from a re-analysis of the deposited data

Results flagged for a closer look

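Rarg on repletion replicate 2 lay at -0.09, apart from the other 3 repletion arrays, whose nearest value was 0.16. The gap to the nearest was 0.897 of the whole range of that diet. Of 24 groups of arrays examined in this way, over the 8 genes and 3 diets, 1 stood out, and chance gives about 1 in 20. Without this array repletion minus depletion of Rarg was 0.21. With slide effects kept, the same array was the lowest of the 4 repletion arrays for Cyp26b1, Rarb and Aldh1a1. It was the highest for Rbp4, Stra6, Aldh1a2 and Rara. After removal of slide effects it was instead the lowest of them for Stra6, at -3.29. For Rarb it then lay at -4.39, higher than repletion replicate 4 at -4.54. The cause was not tested.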

How the results depend on the processing

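Under 29 alternatives for each gene and comparison, 656 of 696 differences kept their direction and 0 passed an adjusted p of 0.05, and 14 of the 24 never turned sign. Probes called stayed at 0 in all 3 comparisons under every alternative but 1. With depletion replicates 1 and 2 both left out, a choice made after seeing the data, repletion against depletion called 1 probe, Zp2, an egg coat gene named after its value was seen (-3.10 ± 0.20, adjusted p 0.0268; -1.39 and 0.935 with all arrays). The count of probes called between slides was 2102 with normexp, against 7403. Repletion minus control of Rbp4 turned to -0.0046 with normexp, -0.0213 with median centring, -0.0217 on the authors' deposited values and -0.23 with only the groups compared. With depletion replicate 1 counted as repletion, repletion minus depletion was -0.0178 for Rarb and -0.0468 for Rarg, and Rarg was at -0.0073 with neither a slide block nor depletion replicate 1. Without depletion replicates 1 and 2 repletion minus control of Rarg was 0.0015. The cause of these turns was not tested. With single arrays left out, depletion minus control ran from -0.34 to 0.48 for Rbp4, -0.60 to 0.26 for Aldh1a1, -0.0016 to 0.24 for Rara and -0.24 to 0.029 for Rarg. Repletion minus depletion ran from -0.32 to 0.30 for Rbp4, -0.0535 to 0.25 for Rarb and -0.00087 to 0.21 for Rarg, and repletion minus control from -0.50 to 0.62 for Rbp4, -0.0518 to 0.0883 for Stra6 and -0.10 to 0.12 for Rarg. Deviations of same-numbered arrays from their diet means correlated from 0.23 to 0.72 on a shared slide and from -0.49 to 0.39 on different slides. Slide effects were kept in these deviations, so they cannot settle whether replicate numbers pair the samples. With replicate number as a block in place of slide, 0 probes were called and Cyp26b1 was at -0.97 in repletion minus depletion. With slide as a random block (correlation 0.344) it was at -0.92. The number of arrays limits all of these values.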
